A study of Mus musculus with 17 samples.

Results

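The 37 genes carried by the mouse mitochondrial chromosome were followed in endothelial cells sorted from bone marrow. They were taken as every row of the count tables whose mouse symbol starts with mt-, 37 of 49585 identifiers, and they are all 37 annotated genes of that chromosome: 13 protein-coding genes, 2 rRNA genes and 22 tRNA genes. The study deleted Eng, which encodes the TGF-beta family co-receptor Endoglin, in endothelium with a tamoxifen-inducible Cre (CreERT2) driven by the endothelial Cdh5 promoter and a loxP-flanked Eng allele (f/f). Animals called KO here carry that combination; the labels call the controls WT and do not say whether they carried the Cre transgene. All 17 mice, controls included, have the label of tamoxifen injection, which they received when 8 weeks old, and marrow was taken 2 or 4 weeks after induction. The groups were WT at 2 weeks (4 libraries, 2 female and 2 male), KO at 2 weeks (4 libraries, 2 female and 2 male), WT at 4 weeks (5 libraries, 2 female and 3 male) and KO at 4 weeks (4 libraries, 1 female and 3 male). The sort from crushed long bones kept CD31+ Sca1+ cells without CD45 or Ter119 (the design text lists the gate without Sca1), and RNA was amplified by SmartSeq2, which primes cDNA on poly(A), reads the whole transcript and keeps neither strand nor molecular identifiers. Each library is called by its sex and number (f1, m2), and 1 female WT library of 4 weeks has no number (f).

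Mitochondrial DNA encodes a small set of subunits of the oxidative phosphorylation complexes, and the rRNAs and tRNAs that translate them; all other mitochondrial proteins come from nuclear genes. Both strands are transcribed as long precursors, and the tRNAs that lie between the other genes are cut out, which releases the mRNAs and rRNAs. Most of the mRNAs then receive a short poly(A) tail. Endothelial cells rely on glycolysis for much of their ATP and use mitochondria for biosynthesis and signalling as well as for respiration.

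The 13 protein-coding genes fall into complex I (7 genes, mt-Nd1 to mt-Nd6 with mt-Nd4l, the NADH dehydrogenase), complex III (1 gene, mt-Cytb, cytochrome b), complex IV (3 genes, mt-Co1 to mt-Co3, cytochrome c oxidase) and complex V (2 genes, mt-Atp6 and mt-Atp8, ATP synthase). In the GENCODE M21 annotation of GRCm38, 28 of the 37 genes lie on the plus strand. The 9 on the minus strand are mt-Nd6 and 8 tRNAs. The rRNA genes mt-Rnr1 (the small ribosomal subunit RNA, chrM:70-1024) and mt-Rnr2 (the large one, chrM:1094-2675) stand at the start of the plus strand with mt-Nd1 (chrM:2751-3707) behind them, and mt-Cytb (chrM:14145-15288) stands near its end. Some neighbouring genes touch or overlap, so a read can overlap more than 1 gene, and others lie apart, as mt-Tn and mt-Tc do by 32 bases. mt-Nd5 and the antisense mt-Nd6 (chrM:13552-14070) share 14 bases, and mt-Atp8 (chrM:7766-7969) shares 43 bases with mt-Atp6 (chrM:7927-8607). Those shared bases are shown in capitals between 10 bases of each gene alone (chrM:7917-7979, plus strand), since a read that covers them overlaps both genes.
mt-Atp8 and mt-Atp6: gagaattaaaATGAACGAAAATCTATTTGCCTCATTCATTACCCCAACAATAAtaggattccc

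Several members have near-identical copies in the nuclear genome, and these bear on which values can be taken at face value. A search of the GENCODE transcripts for members' sequence found 14 nuclear genes with long matches. On chromosome 1, 7 annotated pseudogenes on the minus strand between 24611535 and 24616197 follow the order of the mitochondrial genes from mt-Nd4 back to mt-Co1: Gm28439 (mt-Nd4), Gm10222 (mt-Nd4l), Gm28438 (mt-Nd3), Gm28437 (mt-Co3), Gm10925 (mt-Atp6), Gm28661 (mt-Co2) and Gm29216 (mt-Co1). Of these, 5 had no mismatch over their alignment. On chromosome 2, Gm13341 (mt-Co2), Gm13340 (mt-Co1) and Gm13339 (mt-Nd2) matched at 97.6%, 97.6% and 96.7% identity. The first 60 bases of mt-Co2 are printed with both of its copies, because they show how little separates the copies; capitals mark bases that differ from mt-Co2.
mt-Co2 (chrM:7013-7072, plus strand): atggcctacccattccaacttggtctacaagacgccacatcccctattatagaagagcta
Gm28661 (chr1:24615506-24615565, minus strand): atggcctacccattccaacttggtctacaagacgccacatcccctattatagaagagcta
Gm13341 (chr2:22587903-22587962, minus strand): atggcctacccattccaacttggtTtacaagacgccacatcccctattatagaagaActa
Between mt-Nd3 and Gm28438 the aligned 345 bases differed at 1 base, T3C counted from the first base of the gene, which is in capitals in the first 23 bases of each.
mt-Nd3 (chrM:9459-9481, plus strand): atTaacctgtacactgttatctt
Gm28438 (chr1:24613097-24613119, minus strand): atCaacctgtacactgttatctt
Over all 50-base windows of each gene, 100% of those of mt-Co2, 99.9% of mt-Co3, 99.5% of mt-Atp6, 98.8% of mt-Nd4l and 98.0% of mt-Nd3 also occurred exactly in a nuclear transcript. The share was 62.2% for mt-Nd4, 51.1% for mt-Co1, 8.19% for mt-Nd2, 7.61% for mt-Nd5 and 1.04% for mt-Rnr2. It was 0% for mt-Nd1, mt-Cytb, mt-Nd6, mt-Atp8 and mt-Rnr1.

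Total counts ran from 26705337 to 40882715 per library at 2 weeks and from 20477400 to 33726630 at 4 weeks. Levels are given in CPM, a count scaled to a common library total. At 2 weeks the level of Eng was 225 to 347 CPM in KO, against 705 to 1307 CPM in WT. At 4 weeks it stood at 2400 to 2735 CPM in WT, at 274 to 873 CPM in 3 KO libraries and at 1647 CPM in the KO library m2. The count covers the whole gene and not only the deleted part. Libraries of 2 weeks held 10886 to 13583 detected genes and those of 4 weeks 15996 to 21235. The 10 endothelial markers summed to 4098 to 5571 CPM at 2 weeks and 8255 to 10704 CPM at 4 weeks, and 3 of them (Cdh5, Pecam1 and Emcn) were called higher at 4 weeks in each genotype, where 5.03% of all genes in WT and 4.84% in KO were. Of the 10, Stab2 alone was at 0 in any library, in 2 WT and 2 KO libraries of 2 weeks. Neutrophil markers summed to 4104 and 3150 CPM in the KO libraries m2 and m3 of 2 weeks and to 19.9 to 238 CPM in the other 15, and erythroid markers to 1240 and 752 CPM in the same 2 libraries against 61.4 to 409 in the other 6 of 2 weeks and 165 to 2889 at 4 weeks. The labels name no preparation or sequencing batch, so time and any batch that followed it cannot be told apart. In such bulk libraries, fewer cells with high mitochondrial RNA and less of it per cell cannot be told apart either.

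Of the 37 members, 25 had enough counts to be tested in each comparison: all 13 protein-coding genes, both rRNAs and 10 tRNAs. The other 12 were tRNAs, of which 7 had a count of 0 in every library (mt-Tf, mt-Tv, mt-Tk, mt-Tg, mt-Tr, mt-Th and mt-Ts2). In each library 0 counts allow up to 0.0734 to 0.147 CPM, which covers counting error only. The remaining 5 (mt-Tl1, mt-Td, mt-Tc, mt-Tn and mt-Tl2) had at most 19 counts in any library.

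Levels per length spanned a wide range within the chromosome. At 2 weeks mt-Nd1 stood highest, with 46403 to 61011 CPM per kb of gene (median 50132, n = 8), and at 4 weeks mt-Rnr2, with 11117 to 23244 CPM per kb (median 15365, n = 9). Behind mt-Nd1 at 2 weeks came mt-Cytb (median 40846 CPM per kb), mt-Rnr2 (38361) and mt-Co1 (27702), and each of these genes overlapped its neighbour in that order in range, whereas the ranges of mt-Cytb and mt-Co1 did not overlap. A middle group followed, with mt-Nd4 (median 13291 CPM per kb), then mt-Rnr1 (7864), mt-Nd2 (7385), mt-Nd5 (7203) and mt-Nd6 (5320), of which mt-Nd4 lay above the ranges of the other 4 genes. The lowest 6 were mt-Co2 (median 399.6 CPM per kb), mt-Atp6 (371), mt-Co3 (321), mt-Atp8 (271), mt-Nd3 (119) and mt-Nd4l (65.3). The same 6 genes were lowest at 4 weeks, with medians from 16.9 to 106 CPM per kb. Together mt-Nd1, mt-Cytb, mt-Co1 and mt-Rnr2 held 79.0% to 80.7% of the members' counts at 2 weeks and 79.3% to 82.2% at 4 weeks. The order among these 4 depends on the length used, since 51.1% of the windows of mt-Co1 are shared with nuclear transcripts. Per unshared 50-base window, summed over 17 libraries, mt-Co1 had 20437 counts and mt-Nd1 17380. On the same measure mt-Rnr2 had 15569 and mt-Cytb 14193.

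**Figure D1:**
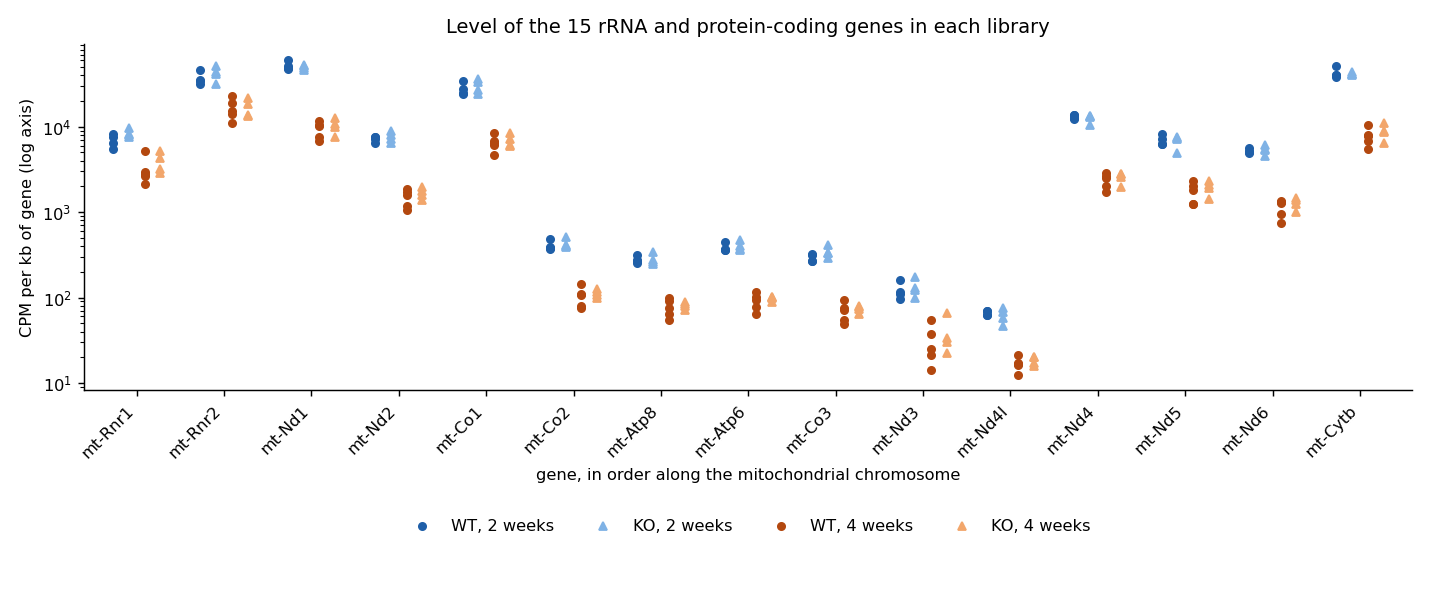
Level of the 2 rRNA and 13 protein-coding genes in each of the 17 libraries, in CPM per kb of gene on a log axis, with genes in chromosome order; circles are WT, triangles KO, blue 2 weeks and orange 4 weeks. The 6 genes from mt-Co2 to mt-Nd4l lie at or below 510 CPM per kb in every library, and for every gene shown the orange points lie below the blue ones.

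The 5 genes whose windows are shared almost in full with nuclear transcripts are among those 6 lowest. They collected 22.0 to 141 counts per base over all 17 libraries, and the other 8 protein-coding genes 96.7 to 16490. The lower end of that second range is mt-Atp8, which has no shared window in any annotated transcript; on chromosome 1 its place in the mitochondrial order is a stretch of 233 bases without annotation, between Gm10925 and Gm28661, whose sequence was not used here. Without mt-Atp8 the other protein-coding genes begin at 1758 counts per base, the value of mt-Nd6. How counts were split between a member and its copies differed widely by gene. mt-Co2 had 96563 counts in all, and its copies Gm28661 and Gm13341 had 89174 and 42586. Together these copies exceeded mt-Co2, and in the other 4 almost fully shared genes the copy on chromosome 1 had more counts than the member. Gm28437 had 109430 against 81935 in mt-Co3, Gm10925 had 130831 against 89268 in mt-Atp6, Gm28438 had 226352 against 15033 in mt-Nd3, and Gm10222 had 29454 against 6532 in mt-Nd4l. For the partly shared mt-Nd4 and mt-Co1 the member had far more, with 5718582 counts in mt-Nd4 against 47364 in Gm28439, and 14939215 in mt-Co1 against 116201 in Gm29216. How the authors' counting treated reads that match 2 places equally well is not given in the sources used here, and its part in these low levels was not tested.

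**Figure D2:**
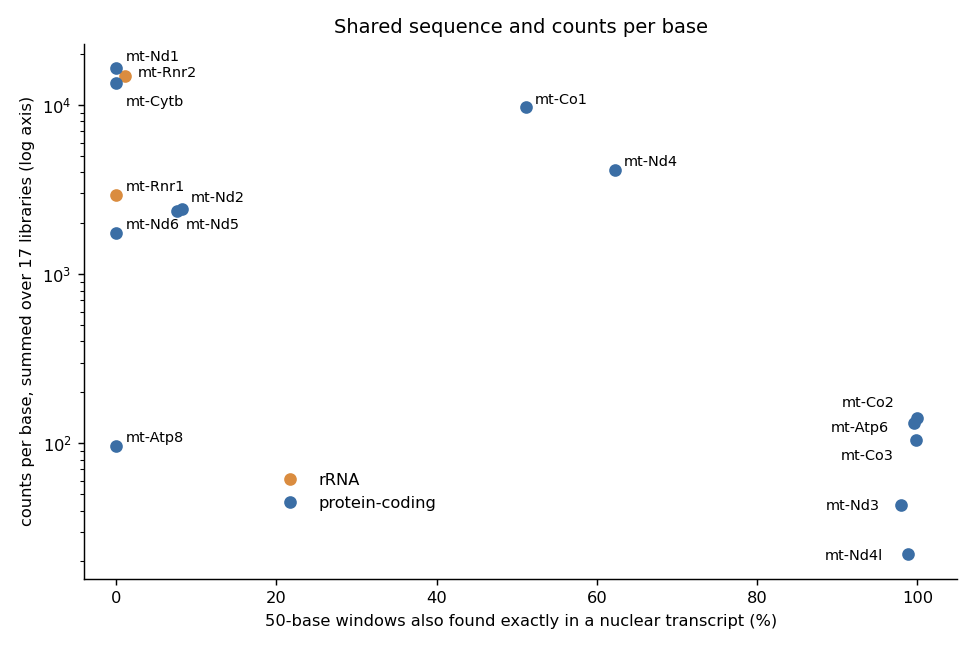
Each point is 1 rRNA or protein-coding gene; the horizontal axis gives the percentage of its 50-base windows that also occur exactly in a nuclear transcript, and the vertical axis (log) its counts per base summed over 17 libraries. The 5 genes at 98.0% or more lie between 22.0 and 141 counts per base, and mt-Atp8 lies at 0% and 96.7.

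Between 2 and 4 weeks, members of all 3 classes fell in both genotypes, the mRNAs by more than the rRNAs. The endothelial markers, by contrast, had higher summed levels at 4 weeks, and the part of cell composition in the members' change was not tested. Protein-coding members took 18.4% ± 1.54 of all counts at 2 weeks (SD, n = 8) and 3.83% ± 0.710 at 4 weeks (SD, n = 9). The rRNAs took 6.99% ± 1.24 and 2.98% ± 0.750, and the tRNA genes 0.261% ± 0.0593 and 0.0735% ± 0.0164. For a single library the 95% Wilson interval of the share of all members was at most 0.0317 percentage points wide, for counting error only. The ratio of protein-coding to rRNA counts was 2.24 to 3.25 in the 8 libraries of 2 weeks and 1.13 to 1.60 in the 9 of 4 weeks, without overlap, and the genotypes overlapped at each time.

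**Figure D3:**
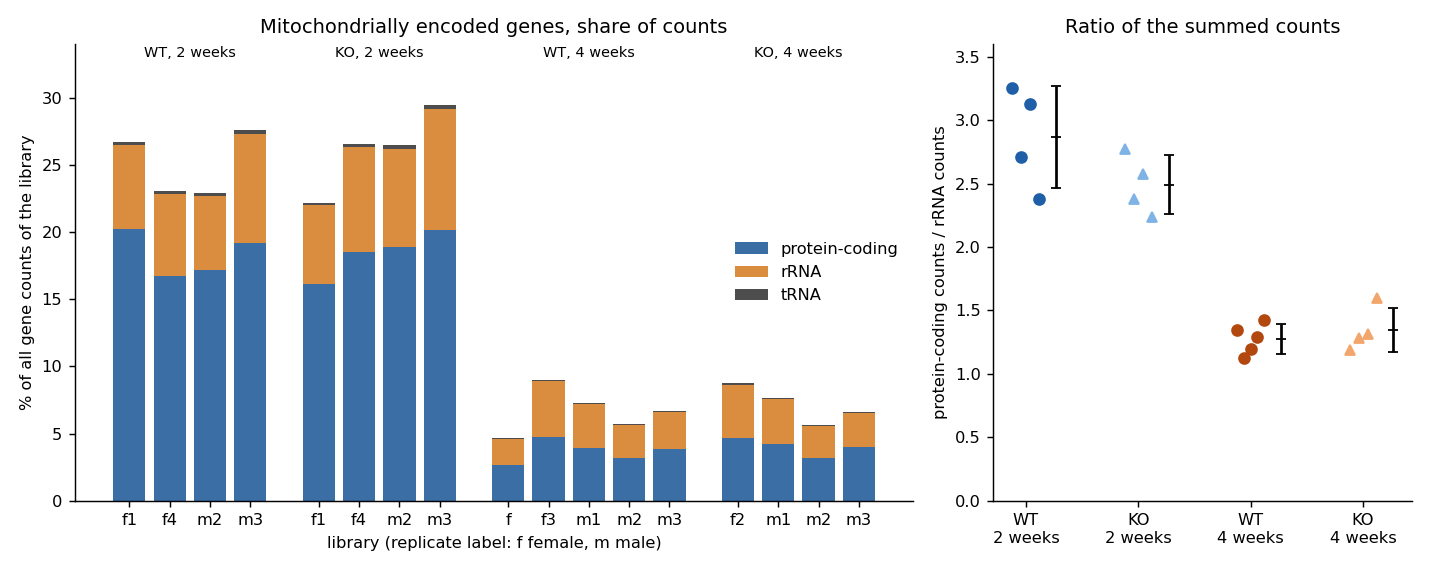
Left, share of each library's counts in protein-coding, rRNA and tRNA members, 1 stacked bar per library; right, the ratio of protein-coding to rRNA counts per library (points) with mean and SD per group (bars). All bars of 2 weeks exceed 22% and all of 4 weeks are under 9%, and the ratio is above 2.2 in every library of 2 weeks and at most 1.60 in every library of 4 weeks.

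In WT, 20 of the 25 tested members were lower at 4 weeks by edgeR's quasi-likelihood test (adjusted p under 0.05) and none higher; the 20 comprised all 13 protein-coding genes, both rRNAs and 5 tRNAs. Over all 15703 genes tested, 1.88% were called lower, and the median log2 fold change was 0.42. In KO the same classes gave the same counts, 20 of 25 members lower and none higher, with 1.49% of all genes called lower and a median of 0.49. The ranges of 22 members at 4 weeks lay wholly below those of 2 weeks in WT (1.97% of all genes did so), and those of 23 members in KO (1.93%).

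The complex I gene mt-Nd1, which encodes a membrane subunit near the quinone site, shows the size of the change in single libraries. In WT of 2 weeks it stood at 58387 CPM in f1, 45339 in f4, 48778 in m2 and 47175 in m3, and in KO at 44408 in f1, 50981 in f4, 46665 in m2 and 49706 in m3. At 4 weeks it stood in WT at 6606 CPM in f, 11282 in f3, 9850 in m1, 7317 in m2 and 10121 in m3, and in KO at 12156 in f2, 9596 in m1, 7341 in m2 and 10324 in m3. Every library of 4 weeks was below every library of 2 weeks, and the genotypes overlapped at both times. The log2 fold change from 2 to 4 weeks was -2.75 in WT (SE 0.19, edgeR adjusted p = 6.34e-06) and -2.58 in KO (SE 0.21, edgeR adjusted p = 2.13e-05).

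The other complex I genes changed by a similar amount. In WT their log2 fold changes ran from -2.32 (mt-Nd5) to -2.77 (mt-Nd4), with a complex median of -2.52 over its 7 genes, and in KO from -2.14 to -2.64 with a median of -2.41. Under limma voom mt-Nd4 and mt-Nd5 did not pass in WT (adjusted p = 0.673 and 0.108) or in KO (0.703 and 0.144), at log2 fold changes of -2.20 to -2.90. The minus-strand gene mt-Nd6, transcribed from the opposite strand, also fell: it stood at 2368 to 3210 CPM in the 8 libraries of 2 weeks and at 387 to 766 CPM in the 9 of 4 weeks, a log2 fold change of -2.52 in WT (SE 0.20) and -2.41 in KO (SE 0.22). The ratio of mt-Nd6 to the adjoining mt-Nd5 was 0.196 to 0.261 at 2 weeks and 0.165 to 0.221 at 4 weeks, with overlap. Without strand in the libraries, reads of mt-Nd6 and of antisense transcript over it cannot be told apart.

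The calls of 2 small complex I genes depended on single libraries. mt-Nd3 stood at 33.1 to 61.1 CPM at 2 weeks and 4.90 to 23.0 at 4 weeks, and mt-Nd4l at 13.7 to 22.4 and 3.71 to 6.30; both also share nearly all their sequence with nuclear copies. Their log2 fold changes in KO, -2.21 (SE 0.50, edgeR adjusted p = 0.0189) and -2.14 (SE 0.54, edgeR adjusted p = 0.0317), passed the threshold, but no longer did so without KO m3 of 2 weeks (adjusted p = 0.0542 for mt-Nd3 and 0.0659 for mt-Nd4l by edgeR), or without any of KO f2, m2 and m3 of 4 weeks (0.0556 to 0.0922). For mt-Nd4l the same held without KO m1 of 4 weeks (0.0815). In WT the call of mt-Nd4l (edgeR adjusted p = 0.0135) was lost when WT libraries were fitted alone (0.0629) and with no filter on low counts (0.111). With KO libraries fitted alone, 16 members were called in KO, without mt-Nd3 (0.0566), mt-Nd4l (0.232), mt-Tp (0.0627) and mt-Tm (0.249).

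Complex III, IV and V members fell as well. mt-Cytb, the complex III gene, stood at 43384 to 58730 CPM at 2 weeks and at 6286 to 12587 at 4 weeks, a log2 fold change of -2.74 in WT (SE 0.20) and -2.54 in KO (SE 0.21). Its level ran beside that of mt-Nd1, with a ratio of mt-Cytb to mt-Nd1 of 0.936 to 1.03 at 2 weeks and 0.906 to 1.06 at 4 weeks. mt-Co1, the catalytic subunit of complex IV, stood at 37624 to 56297 CPM at 2 weeks and 7262 to 12985 at 4 weeks, with log2 fold changes of -2.42 in WT (SE 0.20) and -2.47 in KO (SE 0.22). The medians of the 3 complex IV genes were -2.42 in WT and -2.47 in KO, and those of the 2 complex V genes -2.28 and -2.25.

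The rRNAs fell by less. mt-Rnr2 stood in WT of 2 weeks at 54901 CPM in f1, 55392 in f4, 49733 in m2 and 72857 in m3, and in KO at 50533 in f1, 70157 in f4, 65984 in m2 and 80663 in m3. At 4 weeks it stood in WT at 17587 CPM in f, 36773 in f3, 30173 in m1, 22083 in m2 and 24307 in m3, and in KO at 34559 in f2, 29102 in m1, 21177 in m2 and 22035 in m3. The times did not overlap, and f3 was the highest library of 4 weeks. The log2 fold change was -1.46 in WT (SE 0.25, edgeR adjusted p = 0.00391) and -1.64 in KO (SE 0.27, edgeR adjusted p = 0.00336). Under limma voom the fold changes of mt-Rnr2 were -1.29 and -1.68 with SEs of 35.1 and 35.0, and neither passed. For mt-Rnr1, at 5242 to 9321 CPM at 2 weeks and 2051 to 5028 at 4 weeks, it was -1.43 in WT (SE 0.26) and -1.39 in KO (SE 0.28). Without the KO libraries m2 and m3 of 2 weeks, the 2 with high neutrophil marker levels, mt-Rnr1 in KO fell by 1.07 and did not pass (edgeR adjusted p = 0.101), and the count of members called in KO was 15. Erythroid marker levels were higher still in 3 of the 4 KO libraries of 4 weeks (1404 to 2889 CPM), which this fit keeps.

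**Figure D4:**
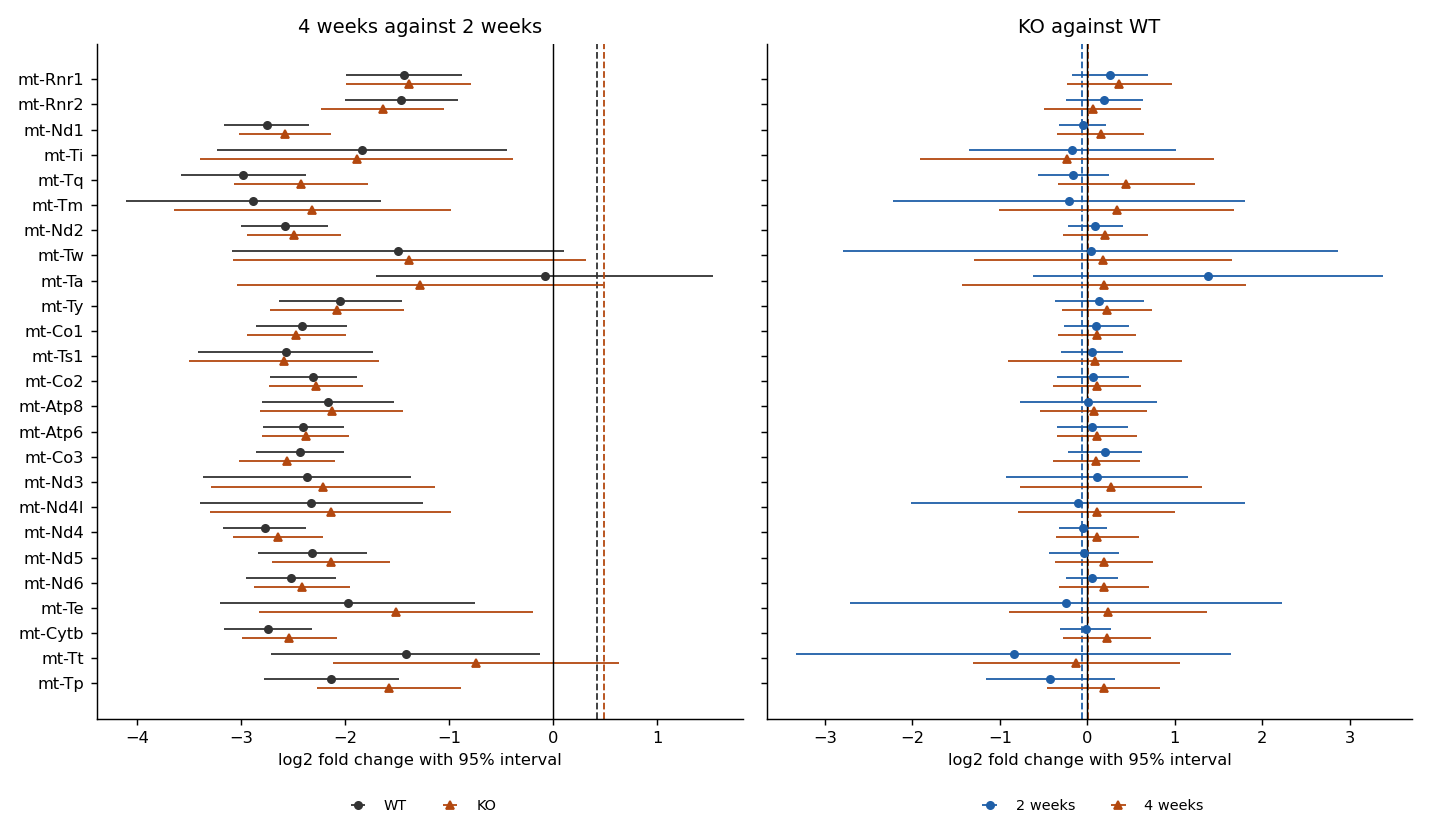
Log2 fold changes of the 25 tested members with 95% intervals from edgeR; left, 4 against 2 weeks in WT (circles) and KO (triangles); right, KO against WT at 2 weeks (circles) and 4 weeks (triangles). Dashed lines are the medians of all genes tested in that comparison; on the left the protein-coding genes lie between -2.13 and -2.77 and the rRNAs between -1.39 and -1.64, and on the right every interval includes 0.

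To see whether members changed relative to each other, each library was also scaled to its summed member counts. On this scale, which sets the mitochondrial total equal at both times, mt-Rnr1 was higher at 4 weeks by 0.78 in WT (SE 0.12, edgeR adjusted p = 0.000171) and 0.79 in KO (SE 0.12, edgeR adjusted p = 0.000281). mt-Rnr2 was higher by 0.75 in WT (SE 0.089) and 0.55 in KO (SE 0.094). Lower in both genotypes were mt-Nd4 (-0.55 in WT, -0.46 in KO), mt-Nd1 (-0.54, -0.40), mt-Cytb (-0.53, -0.36) and mt-Nd2 (-0.37, -0.31). mt-Nd6 passed only in WT (-0.31; -0.23 in KO, edgeR adjusted p = 0.115) and mt-Co1 only in KO (-0.27; -0.18 in WT, edgeR adjusted p = 0.0886); a difference between the genotypes was not shown, since the test of it on this scale called none of the 25 members. In all 7 members were called in WT and 7 in KO. On this scale 50.5% of all genes were called higher and 0.0382% lower in WT, and 46.6% and 0.0382% in KO, so the calls speak only of the members against their own sum. The changes had no single order along the chromosome: mt-Nd5, between mt-Nd4 and mt-Cytb, was at -0.11 in WT and 0.05 in KO, with 95% intervals from -0.37 to 0.15 and from -0.23 to 0.33.

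**Figure D5:**
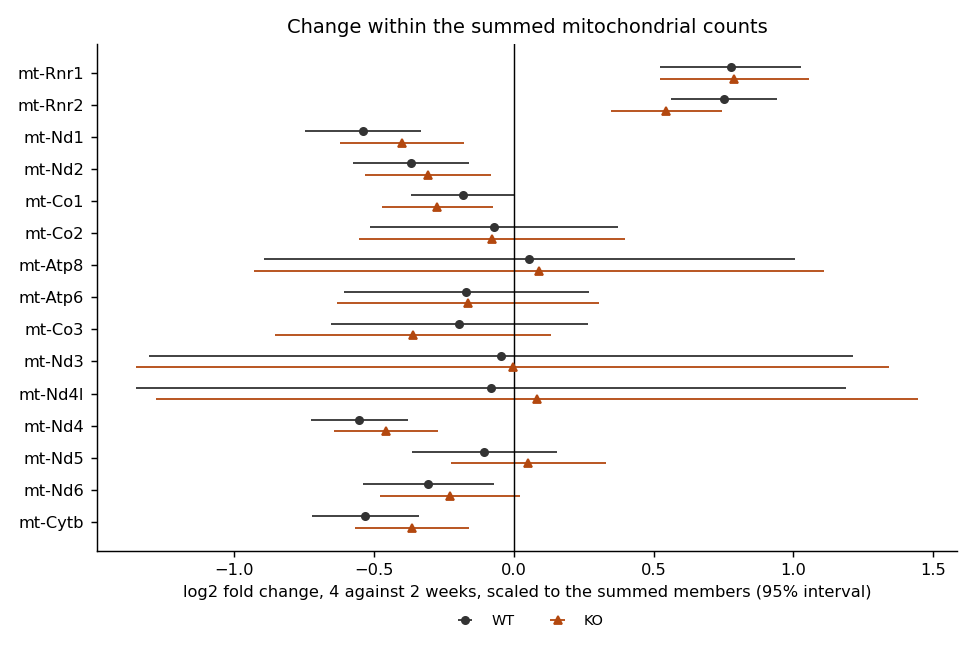
Log2 fold change from 2 to 4 weeks of the 15 rRNA and protein-coding members after scaling each library to its summed member counts, with 95% intervals from edgeR; circles are WT and triangles KO. Both rRNAs lie between 0.55 and 0.79, and mt-Nd1, mt-Nd2, mt-Nd4 and mt-Cytb lie between -0.31 and -0.55 with intervals below 0.

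Ratios of single counts show the same contrast per library. mt-Nd1 counts were 0.616 to 1.06 of those of mt-Rnr2 at 2 weeks and 0.307 to 0.469 at 4 weeks, without overlap. mt-Nd1 was 3.15 to 5.15 times mt-Nd5 at 2 weeks and 2.70 to 3.23 times at 4 weeks, with overlap. The ratio of mt-Rnr2 to mt-Rnr1 overlapped, at 6.55 to 9.49 and 7.02 to 11.8.

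Among the tRNA genes, counts were concentrated in 4 genes, all on the minus strand. mt-Ty, mt-Ts1, mt-Tq and mt-Tp (tRNAs for tyrosine, serine, glutamine and proline) held 98.3% of all tRNA counts. The median count per library was 21638 for mt-Ty, 3227 for mt-Ts1, 1232 for mt-Tq and 1016 for mt-Tp. The highest plus-strand tRNA, mt-Tm, had a median of 170, and the 14 plus-strand tRNAs together held 1.20% of tRNA counts. Each of the 4 lies against at least 1 gene of the opposite strand: 1 base separates mt-Ty from mt-Co1, mt-Ts1 overlaps the end of mt-Co1 by 3 bases, mt-Tq overlaps mt-Ti by 3 bases and lies 2 bases from mt-Tm, and mt-Tp adjoins mt-Tt. mt-Ta and mt-Te, which also adjoin an opposite-strand gene, had lower medians of 56 and 131. So did the plus-strand tRNAs beside a minus-strand gene, with medians of 2 for mt-Td, 21 for mt-Ti, 91 for mt-Tw, 110 for mt-Tt and 170 for mt-Tm. The minus-strand tRNAs mt-Tn and mt-Tc, whose neighbours are both on their own strand, had 0 to 12 counts. Plus-strand tRNAs with a plus-strand gene on both sides, such as mt-Tv between the rRNAs and mt-Tk between mt-Co2 and mt-Atp8, had 0 to 19 counts. The sequences of the 4 high tRNAs and of these 2 are printed in the direction of the tRNA. Capitals mark the bases that also lie under a neighbouring gene. Reads that run across a border without shared bases are not marked by them.
mt-Ty (chrM:5260-5326, minus strand): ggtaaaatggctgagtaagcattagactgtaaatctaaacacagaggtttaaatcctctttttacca
mt-Ts1 (chrM:6870-6938, minus strand): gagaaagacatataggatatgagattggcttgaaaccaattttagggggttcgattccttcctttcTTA
mt-Tq (chrM:3772-3842, minus strand): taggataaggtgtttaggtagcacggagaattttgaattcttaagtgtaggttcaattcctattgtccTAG
mt-Tp (chrM:15356-15422, minus strand): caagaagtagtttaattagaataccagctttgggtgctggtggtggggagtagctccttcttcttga
mt-Tk (chrM:7700-7764, plus strand): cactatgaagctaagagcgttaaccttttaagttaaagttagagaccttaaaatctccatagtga
mt-Tv (chrM:1025-1093, plus strand): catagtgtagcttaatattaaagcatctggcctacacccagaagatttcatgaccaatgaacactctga
The counting mode and the strand setting of the authors' counts are not given in the sources used here, and their part in this pattern was not tested. Reads counted at these genes cannot be told apart from reads of longer precursors that run across them.

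Among the 10 tested tRNA genes, 5 were called lower at 4 weeks in each genotype. mt-Ty stood at 1391 to 2740 CPM in the 8 libraries of 2 weeks and at 418 to 802 in the 9 of 4 weeks, with log2 fold changes of -2.05 in WT (SE 0.28) and -2.08 in KO (SE 0.30). Its ratio to the neighbouring mt-Co1 was 0.0362 to 0.0501 at 2 weeks and 0.0454 to 0.0621 at 4 weeks. The log2 fold changes in WT and KO were -2.98 and -2.42 for mt-Tq, -2.57 and -2.58 for mt-Ts1, -2.13 and -1.58 for mt-Tp, and -2.88 and -2.31 for mt-Tm. The call of mt-Tm in KO (edgeR adjusted p = 0.0421) was lost in 12 of the 17 fits that each left out 1 library, with adjusted p from 0.0564 to 0.133; these were every KO library and 4 of the 5 WT libraries of 4 weeks, m2 excepted. In WT the call of mt-Tm (edgeR adjusted p = 0.00834) was lost with no filter on low counts (0.0774). The remaining 5 tested tRNAs did not pass in either genotype: in WT the values were -1.98 for mt-Te (edgeR adjusted p = 0.0521), -1.84 for mt-Ti, -1.49 for mt-Tw, -1.42 for mt-Tt and -0.08 for mt-Ta, and in KO they ran from -0.74 (mt-Tt) to -1.89 (mt-Ti).

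Most nuclear copies were also lower at 4 weeks. Of the 14 copies, 13 were lower at 4 weeks in WT and 10 in KO by edgeR, with medians of -2.47 and -2.33. Over all genes 1.88% were called lower in WT and 1.49% in KO, with medians of 0.42 and 0.49. Where a copy has no mismatch to its member, as Gm28661 has none to mt-Co2, reads of the 2 cannot be told apart within the aligned sequence. Gm28661 had log2 fold changes of -2.37 in WT (SE 0.20) and -2.40 in KO (SE 0.22), beside -2.30 and -2.28 for mt-Co2 itself. Gm28438 stood at 464 to 927 CPM at 2 weeks and 102 to 306 at 4 weeks, with log2 fold changes of -2.49 in WT and -2.43 in KO, beside -2.37 and -2.21 for mt-Nd3. When the counts of each copy were added to those of its member, 20 members were again called in WT and 20 in KO.

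No tested member passed the test between KO and WT at either time. At 2 weeks edgeR called 0 of 25 members and 0% of the 10477 genes tested. The deleted gene Eng was not called either, although its CPM ranges in KO and WT did not overlap. The absence of a call therefore does not show that a gene was unchanged. By edgeR, 0 members had an unadjusted p under 0.05, beside 276 of all 10477 genes. DESeq2 and limma voom called 0 members, beside 149 and 12 of all genes. The log2 fold changes, KO against WT, of the protein-coding genes ran from -0.11 (mt-Nd4l) to 0.20 (mt-Co3), with a median of 0.05 beside -0.06 for all genes, and those of mt-Rnr1 and mt-Rnr2 were 0.26 and 0.20. Leaving out 1 library moved these to between 0.12 (without WT m2) and 0.40 (without WT m3) for mt-Rnr1, and to between 0.059 (without WT m2) and 0.32 (without WT m3) for mt-Rnr2; they were also lower by over 1.5 times without KO m3, and for mt-Rnr2 without KO f4, and higher by over 1.5 times for mt-Rnr2 without KO f1. How precisely these differences were measured varied by gene. For mt-Nd1 the 95% interval was -0.32 to 0.21, for mt-Cytb -0.31 to 0.27, for mt-Co1 -0.27 to 0.48 and for mt-Rnr2 -0.24 to 0.64, whereas for mt-Nd4l it was -2.01 to 1.80.

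At 4 weeks edgeR called 0 of 25 members and 0% of the 15209 genes tested, and Eng was again not called. By edgeR, 0 members had an unadjusted p under 0.05, beside 422 of all 15209 genes. DESeq2 and limma voom called 0 members, beside 17 and 0 of all genes. All 13 protein-coding genes had positive log2 fold changes, from 0.07 (mt-Atp8) to 0.27 (mt-Nd3), with a median of 0.11 beside 0.01 for all genes. These genes are not independent of each other, since they are cut from shared precursors and counted in the same libraries. The 95% interval was -0.35 to 0.65 for mt-Nd1, -0.28 to 0.73 for mt-Cytb, -0.34 to 0.56 for mt-Co1 and -0.23 to 0.97 for mt-Rnr1.

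A single member, mt-Ta (tRNA for alanine, chrM:5018-5086, minus strand), had genotypes whose CPM ranges did not overlap at 2 weeks, with KO above WT; 3.36% of all genes tested had ranges that did not overlap. It had 8 counts in WT f1, 83 in f4, 64 in m2 and 47 in m3, and 92 in KO f1, 139 in f4, 90 in m2 and 119 in m3, which is 0.211 to 2.03 CPM in WT and 3.03 to 4.10 in KO. The log2 fold change was 1.38 (SE 0.85, 95% interval -0.62 to 3.38, edgeR adjusted p = 1). At 4 weeks its ranges overlapped, at 13 to 56 counts in WT and 27 to 61 in KO, with a log2 fold change of 0.19 (SE 0.72). No member had ranges that did not overlap at 4 weeks, where 1.19% of all genes did.

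The KO effect at 4 weeks was not shown to differ from that at 2 weeks for any member. edgeR called 0 of 25 members, and 0.0764% of all genes (12 of 15703). By edgeR, 0 members had an unadjusted p under 0.05, beside 1540 of all 15703 genes. DESeq2 and limma voom also called 0 members, and limma voom called 5 of all genes. DESeq2 called 1303 of all genes for this difference, none of them a member. The differences for the protein-coding genes ran from -0.12 (mt-Co3) to 0.20 (mt-Cytb), and mt-Tq had the smallest p of the members with a difference of 0.56 (SE 0.39, edgeR adjusted p = 0.892), which was 0.31 without KO m1 of 4 weeks and 0.34 without WT m2 of 4 weeks.

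The nuclear subunits of the same complexes were set beside the members. All 77 matched nuclear subunits of complexes I to V were tested. In WT, 3 were lower at 4 weeks and 0 higher, with a median log2 fold change of -0.16, and in KO 2 were lower and 0 higher, also with a median of -0.16. Over all genes 1.88% were called lower in WT and 1.49% in KO, with medians of 0.42 and 0.49. Those called were Ndufa2 of complex I (-0.94, SE 0.22), Sdhc of complex II (-0.91, SE 0.22) and Atp5d of complex V (-0.65, SE 0.18) in WT, and Sdhd (-1.09, SE 0.22) and Sdhc (-0.85, SE 0.24) of complex II in KO. Complex II, the succinate dehydrogenase, has no mitochondrially encoded subunit. In complexes III and IV none passed, and the smallest p belonged to Uqcrfs1 in both genotypes (-0.91 in WT, -0.84 in KO), to Ndufa4 in WT (0.67) and to Cox8a in KO (-0.43). In KO none passed in complexes I and V, where Ndufa2 (-0.76) and Atp5o (-0.84) came nearest. The summed level of the nuclear complex I subunits was 2603 to 5274 CPM at 2 weeks and 3508 to 4334 at 4 weeks, and that of complex IV 1673 to 3671 and 2544 to 3192, with overlap between the times.

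Between genotypes, 0 of the 77 nuclear subunits were called at either time, with medians of 0.17 at 2 weeks and 0.15 at 4 weeks. The smallest p at 2 weeks belonged to Ndufa1 in complex I (0.53), Sdhd in II (0.58), Uqcrc1 in III (-0.27), Ndufa4 in IV (0.45) and Atp5a1 in V (-0.64). At 4 weeks it belonged to Ndufb7 (0.33), Sdha (0.08), Uqcrh (0.23), Cox6c (0.29) and Atp5g1 (0.31). For the difference between the KO effects it belonged to Ndufb3 (0.52), Sdhd (-0.70), Uqcrc1 (0.34), Cox5a (-0.22) and Atp5a1 (0.66).

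Nuclear genes that act on mitochondrial DNA and RNA were read against the share of all genes called higher at 4 weeks, 5.03% in WT and 4.84% in KO; the counts in both lists are near or below it. Of 16 genes for mitochondrial DNA maintenance and transcription, 1 was higher at 4 weeks in WT and none in KO: Polg2, the accessory subunit of the mitochondrial DNA polymerase, had 0 counts in 3 of 4 WT libraries of 2 weeks and 206 to 523 counts at 4 weeks (edgeR adjusted p = 0.0379). In KO the nearest was Top1mt, the mitochondrial topoisomerase, at 0 counts in all 4 libraries of 2 weeks and 100 to 243 at 4 weeks (edgeR adjusted p = 0.0557). Of 25 genes for mitochondrial RNA processing and decay, 1 was higher in each genotype. In WT it was Fastkd2, a mitochondrial RNA-binding protein, with 0 counts in all 4 libraries of 2 weeks and 109 to 515 at 4 weeks. In KO it was Pnpt1, the mitochondrial polynucleotide phosphorylase, with 0 counts in all 4 libraries of 2 weeks and 396 to 804 at 4 weeks. These genes were not at 0 throughout the other genotype at 2 weeks. In KO, Polg2 reached 373 counts and Fastkd2 747, and in WT, Top1mt reached 313 and Pnpt1 525. Each also had libraries at 0 there. The number of detected genes also differed between the times, and its part in these zeros was not tested.

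Of 79 tested mitochondrial ribosomal protein genes, which serve the ribosome built on mt-Rnr1 and mt-Rnr2, 1 was lower in WT, Mrpl10 (-1.21, SE 0.25), and none in KO, where Mrpl16 came nearest (-1.89, edgeR adjusted p = 0.0518); the medians were -0.12 and -0.18, and the count in WT is below the 1.88% of all genes called lower. Of 6 tested regulators of mitochondrial biogenesis none passed, and Gabpa had the smallest p (-0.59 in WT, -0.60 in KO). Between genotypes none of the tested genes in these 4 lists passed at either time or in the difference; at 2 weeks this covers 8 of the 16 DNA maintenance genes, 15 of the 25 RNA processing genes, 79 of the 83 ribosomal protein genes and 5 of the 8 regulators. Those with the smallest p were Ssbp1 (2.08), Mrm2 (2 of 4 KO libraries at 0 counts), Mrpl58 (0.97) and Gabpb1 (-0.96) at 2 weeks, Rnaseh1 (0.66), Fastkd3 (0.88), Mrps2 (-0.65) and Yy1 (1.004) at 4 weeks, and Top1mt, Pnpt1, Mrpl16 (-1.62) and Gabpb1 (1.15) for the difference.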

How the data were processed

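The deposited values are whole-number counts per gene and library, which the authors made from SmartSeq2 reads; HTSeq 0.6.1p1, STAR, cutadapt and the builds GRCm38 and mm10 are named per the submitters' processing notes. The counting mode, strand setting and annotation are not given in the sources used here. GENCODE M21 (GRCm38) supplied symbols, positions and transcript sequences.

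Groups were taken from the sample labels. KO was compared with WT at each time with sex as a covariate; the times, and the difference between the KO effects, were tested in 1 fit of all 17 libraries with group and sex. The test was edgeR's quasi-likelihood test (edgeR 4.0.16, R 4.3.3) with filterByExpr, TMM scaling and Benjamini-Hochberg adjustment over all genes tested, with a threshold of 0.05. DESeq2 1.42.0 and limma 3.58.1 (voom with sample quality weights), other scalings and filters, and leaving out each library were alternatives. The fits were also run on simulated counts with large set fold changes, which says nothing of their power for small differences. Nothing in the labels says that libraries share an animal; p-values measure the spread between these libraries. No library was counted as a repeat of another: the closest pair within a group differed at 44.1 times the chi-square per degree of freedom that counting noise gives. Precision rests on totals of 20477400 to 40882715 counts per library.

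Nuclear copies were sought among annotated transcripts, so unannotated copies were not analysed here. All 37 members were accounted for. From each nuclear list, up to 3 called genes per direction were named, or the gene with the smallest p. The members and lists were chosen with earlier results of these data known.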

Additional observations from a re-analysis of the deposited data

Results flagged for a closer look

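In 5 of 68 groups of 4 or 5 libraries, 1 library stood apart from the others of its group in the CPM of a member; such a gap is met by chance in about 1 in 20 groups. mt-Rnr1 was at 5028 CPM in WT f3 of 4 weeks and at 2051 to 2840 in the other 4 libraries. mt-Co2 was at 349 CPM in KO m3 of 2 weeks and at 266 to 279 in the other 3. mt-Atp6 was at 307 CPM in WT f1 of 2 weeks and at 244 to 253 in the others. In KO f1 of 2 weeks, mt-Nd4 was at 14473 CPM (18132 to 18629 in the others) and mt-Nd5 at 9070 CPM (13160 to 13887).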

How the results depend on the processing

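The count of members called lower at 4 weeks was 18 to 23 in WT and 15 to 22 in KO under every alternative except scaling to the summed members, which gave 7 called in each genotype, 5 lower and 2 higher, by its own construction. On that scale the direction turned in WT for mt-Rnr1 (0.78), mt-Rnr2 (0.75), mt-Atp8 (0.0553), mt-Ty (0.19) and mt-Tp (0.10), and in KO for mt-Rnr1 (0.79), mt-Rnr2 (0.55), mt-Atp8 (0.0911), mt-Nd4l (0.0830), mt-Nd5 (0.0518), mt-Ty (0.13) and mt-Tp (0.58). The 5 tested tRNAs without a call also turned, to 0.28 (mt-Te) to 2.15 (mt-Ta) in WT and 0.34 (mt-Ti) to 1.41 (mt-Tt) in KO. With 1 library left out at a time, 20 to 21 members were called in WT and 17 to 20 in KO. The fold of the mean share, 2 over 4 weeks, was 3.73 for all members, 4.80 for protein-coding and 2.35 for rRNA members, and 3.58 to 3.87 without 1 library. Under limma voom, the calls of mt-Rnr2, mt-Nd4 and mt-Nd5 were lost in both genotypes at similar log2 fold changes (in WT and KO -1.29 and -1.68, -2.90 and -2.73, -2.42 and -2.20), with an SE of 35.1 for mt-Rnr2 in WT; the cause was not tested. Genotype and interaction counts were 0 in each alternative run. With the replicate block they were 0 at 2 weeks and 0 at 4 weeks (males); libraries of the same number correlated at -0.0184 to 0.0452 at 2 weeks and 0.0545 to 0.154 at 4 weeks, so the numbers were not taken to pair animals. Over all genes, DESeq2 called 2938 in WT and 2873 in KO between the times, against 1086 and 994 by edgeR. Between genotypes it called 149 at 2 weeks and 17 at 4 weeks, and limma voom 12 and 0. Scaled by the library total alone, 132 genes were lower and 1074 higher in WT, beside 296 and 790 with TMM, and the all-gene median was 0.73. Counts per library were 120 to 2224 for mt-Nd3 and 96 to 815 for mt-Nd4l, and lower for most tRNAs. The part of such counts in the lost calls of mt-Nd3, mt-Nd4l and mt-Tm was not tested.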
